A study of Mus musculus with 6 samples.

Results

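Pigb, Ssh1, Sar1a, Oxsr1, Spn, Clec16a, Usp48 and Fbxl17 are 8 mouse genes whose RNA was made up of a different mix of transcript isoforms in Wtap KO and in WT CD4+ T cells. They were picked on that difference, measured as the share of a gene's estimated counts held by each of its transcripts in the same libraries. Every difference in share between the groups is therefore given as a description. Where the members' calls in the fits over all features are listed, they describe the genes that were picked and support nothing. The 8 genes are among 55177 annotated genes, and 9404 genes had at least 2 transcripts with enough counts to be compared for transcript usage. The members have 64 of the 141429 annotated transcripts. Of these, 38 are annotated as protein coding, 8 as targets of nonsense-mediated decay, 9 as retaining an intron and 9 as processed transcripts. Counts were present for 59 of the 64 transcripts, and 43 passed the filter on low counts. A transcript listed at 0 in 1 group passed that filter through the other group, so no count over the 43 is offered as support.

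RNA was sequenced from 3 Wtap KO and 3 WT libraries of CD4+ T cells from C57BL/6J mice. Per the labels' protocols, the cells received 4-hydroxytamoxifen at 1 µM for 24 h to deplete Wtap, were activated through CD3 and CD28 under Th1 conditions with IL-12 and an antibody to IL-4 for 40 to 48 h, were expanded in IL-2 and were collected on day 4. The protocol text is the same for WT and Wtap KO libraries, so the tamoxifen step is stated for both. The sources used here do not state whether Cre was present in the WT cells, what was deleted in Wtap, or whether the libraries stem from separate animals. P-values therefore measure only the spread among the libraries, and how much of it is technical is not known.

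A gene can give several transcripts by starting at different first exons, by joining different splice sites, by keeping an intron, or by ending at different last exons or polyadenylation sites. Such isoforms can differ in the protein they encode, in the untranslated sequence that carries regulatory sites, or in whether a stop codon lies upstream of a splice junction, a layout that can direct an mRNA to nonsense-mediated decay. WTAP is a regulatory part of the enzyme complex in the nucleus that writes N6-methyladenosine (m6A) on RNA, a mark found mostly in long internal exons and around stop codons and read by proteins that act on splicing, polyadenylation and decay.

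The libraries held 32363139 to 44039467 estimated counts. Summed CPM, the counts scaled to library size by TMM, of the CD4 T cell markers Cd3e, Cd3g, Trac and Cd4 ran between 1547 and 1722 in Wtap KO libraries and between 2085 and 2334 in WT libraries. Of the 12 markers of CD8 T, B, NK, macrophage and dendritic cells, 11 were below 3 CPM in all libraries. The other was Cd8b1, at 13.6 to 18.2 CPM in Wtap KO and at 9.44 to 10.6 CPM in WT libraries, without overlap, and its part in the results was not tested; Cd8a was at 0.865 to 2.36 CPM in Wtap KO and at 0.166 to 1.34 CPM in WT. In these bulk libraries, fewer cells of a type and less RNA per cell cannot be told apart. Total Wtap RNA was 114 to 120 CPM in Wtap KO and 94.3 to 114 CPM in WT libraries, so the gene total does not show the deletion. Wtap KO 3 looked male and the other 5 libraries did not: Kdm5d, a gene of the Y chromosome, reached 63.3 CPM there and at most 3.53 CPM elsewhere. By this pattern the Wtap KO libraries do not all stem from the same animals. The shares of Wtap KO 3 are printed below beside those of the other libraries, and whether sex had a part in the differences was not tested. The number of calls fell without Wtap KO 3, and those counts stand beside each result.

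In each gene, the transcript that gained the largest share in Wtap KO and the transcript that lost the largest share are called the switched pair. In 7 of the 8 genes, the shares of both transcripts of the pair did not overlap between the 3 Wtap KO and the 3 WT libraries. The exception was Usp48, where Usp48-201 overlapped. Fbxl17-204 was separated only narrowly, at 43.240% in Wtap KO 3 and 43.242% in WT 3. For comparison, 17.7% of all 39137 transcripts tested for usage had shares that did not overlap. This is a share of single transcripts, and the share of genes with both transcripts of the pair separated was not computed. The largest difference in share of 1 transcript was at least 10 percentage points in 7 of the 8 genes and in 18.4% of all 9404 genes, and Usp48 fell short of it at 9.82 points, by Usp48-201. That difference of -9.82 points was -4.85 without WT 1 and -14.3 without WT 3, so leaving out 1 library takes it to either side of 10 points. Among the 6935 genes with at least 10 CPM in both groups, Sar1a ranked 16, Clec16a 27, Ssh1 63, Spn 74, Oxsr1 97, Pigb 110, Fbxl17 324 and Usp48 768. These ranks describe how the genes were picked.

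**Figure D1:**
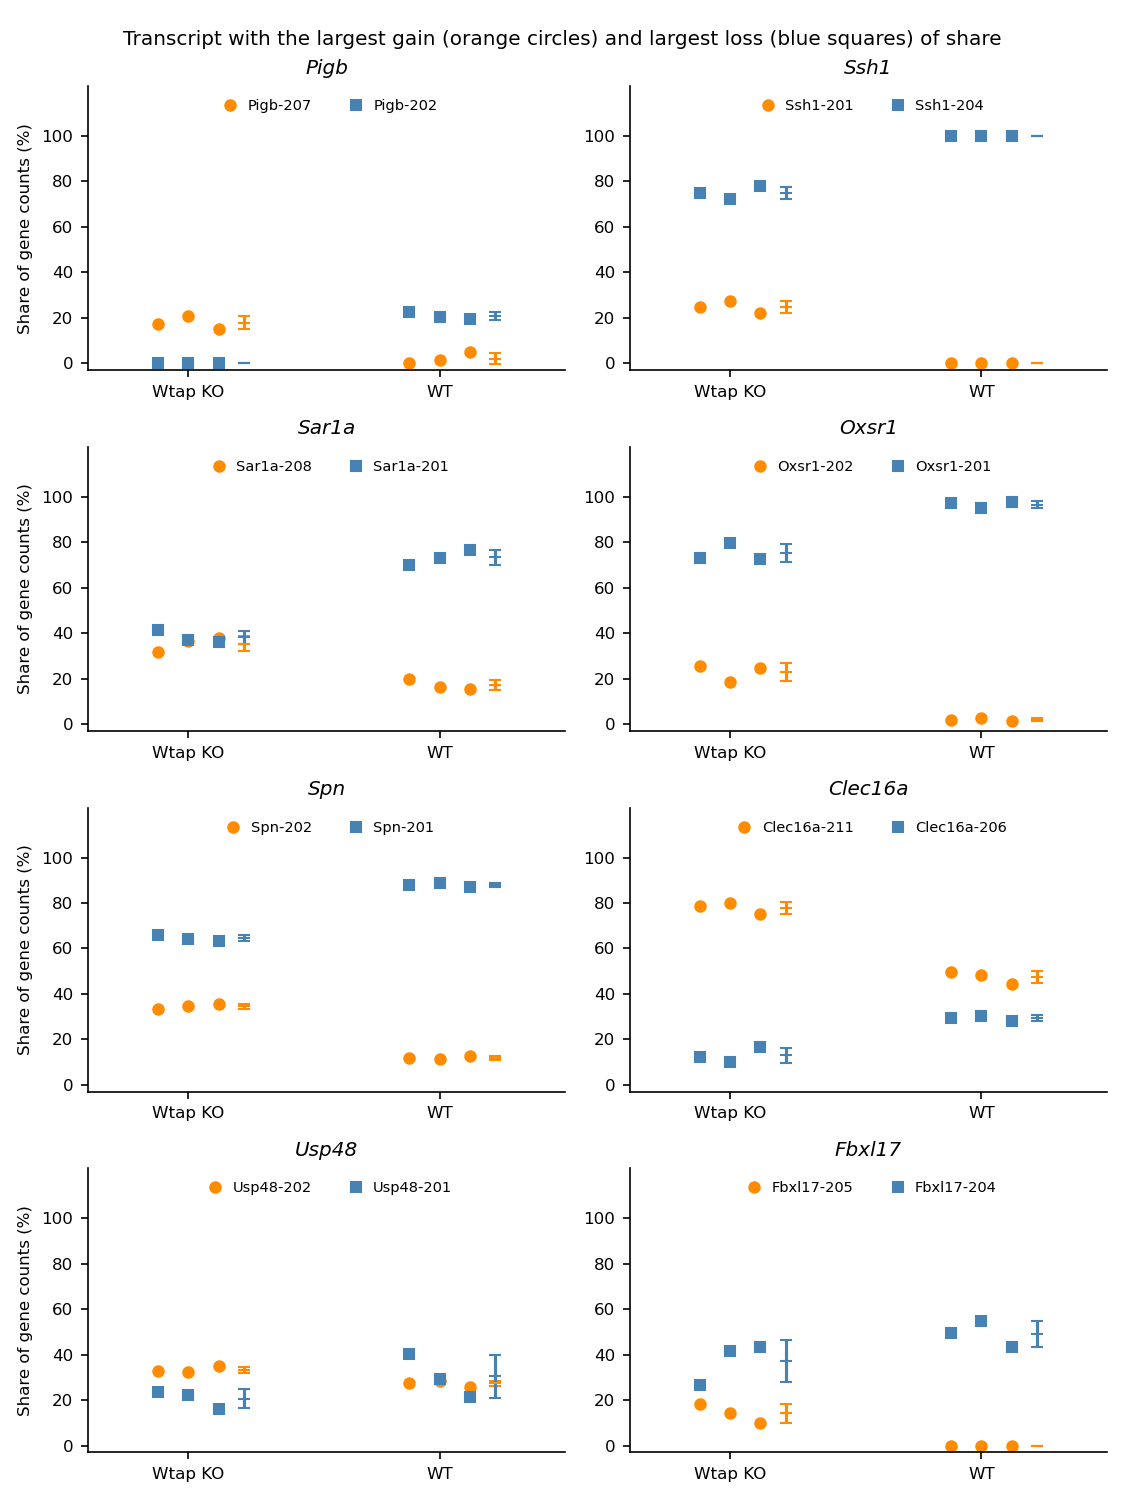
Share of a gene's estimated counts (%, vertical axis) held by the transcript with the largest gain (orange circles) and by the transcript with the largest loss (blue squares) in each of 3 Wtap KO libraries (left in each panel) and 3 WT libraries (right), with the mean and SD beside the points. Both transcripts are separated between the groups in 7 of the 8 genes, and the blue squares of Usp48 overlap. In Fbxl17 the nearest blue squares of the groups are nearly equal.

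**Figure D2:**
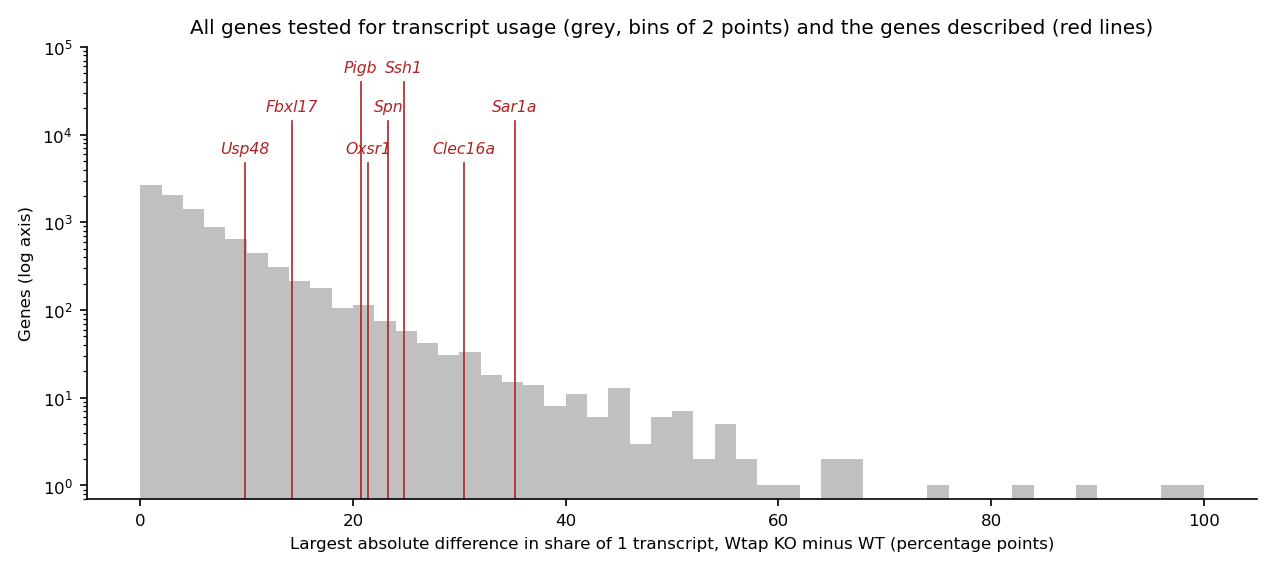
Number of genes (log axis) by the largest absolute difference in share of 1 transcript between Wtap KO and WT, in bins of 2 percentage points, over the 9404 genes tested for transcript usage. Red lines mark the 8 genes, from Usp48 at 9.82 points to Sar1a at 35.2 points, and each lies to the right of the highest bars.

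Across all tested transcripts, edgeR's quasi-likelihood test of usage with Benjamini-Hochberg adjustment called 82 of 39137, or 0.21%, at an adjusted p of at most 0.05. Of the members' 43 transcripts, 8 were called in 6 genes, and these were Pigb-202, Ssh1-201, Ssh1-204, Sar1a-201, Oxsr1-202, Spn-201, Spn-202 and Usp48-206. Of the 8 calls, 3 were for a higher and 5 for a lower share in Wtap KO, against 0.11% and 0.0996% of all transcripts tested. Genes with at least 1 such call made up 0.755% of all 9404. Nothing is read from these counts, since the genes were picked on this contrast. The calls also rest on all 6 libraries: leaving out any of Wtap KO 1, Wtap KO 2, Wtap KO 3, WT 1 or WT 2 left 0 of the 8 genes with a call, and leaving out WT 3 left 1.

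Spn and Pigb bear on the proteins of the cell surface. Spn encodes CD43 (leukosialin), a large sialylated mucin that covers T cells, and lies on chromosome 7 from 127132232 to 127137823 on the minus strand (GRCm38). Spn-201 has 2 exons, with the whole coding region of 395 codons and the end of the RNA in an exon of 3666 bases. In Spn-202 that exon is spliced at a site past the stop codon, 1 exon of 95 bases is added, and the RNA ends in another exon of 769 bases, so the coding region is the same and the annotation class is nonsense-mediated decay. The windows of 30 bases below run across the point where they part, with capitals for the bases after the last shared base at 127136139.
Spn-202: ctctatgagcaacagGCTCTGTTCCCAGCA
Spn-201: ctctatgagcaacagGTATTCATCCAATCT
The capitals of Spn-201 open with GT, the letters at the start of nearly all introns, and those of Spn-202 belong to the exon that begins at 127133638. Spn-202 held 33.3%, 34.8% and 35.5% of the gene's counts in Wtap KO libraries 1 to 3, against 11.6%, 11.2% and 12.6% in WT libraries 1 to 3. Spn-201 held 65.9%, 64.3% and 63.4% in Wtap KO, against 88.1%, 88.6% and 86.9% in WT. Both transcripts were separated between groups by far more than the spread within them. Per length, Spn-202 averaged 38.2 ± 1.95 TPM, a level scaled for transcript length, in Wtap KO and 20.0 ± 2.59 TPM in WT (SD, n = 3 each), and Spn-201 averaged 40.2 ± 4.16 TPM in Wtap KO and 83.4 ± 5.94 TPM in WT. The spliced form was thus at about the level of the unspliced form in Wtap KO and well under it in WT. The gene total, summed over its transcripts, was 243, 222 and 210 CPM in Wtap KO and 324, 351 and 392 CPM in WT, a log2 difference of -0.66 ± 0.11 (SE).

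Pigb encodes a mannosyltransferase of the endoplasmic reticulum that adds the third mannose to the glycosylphosphatidylinositol (GPI) anchor by which many T cell surface proteins are held. It lies on chromosome 9 from 73007419 to 73040378 on the minus strand, and transcripts of Ccpg1 and other annotated genes overlap it on the opposite strand, so without a stated strand setting reads from the overlap cannot be assigned with certainty. Pigb-202, Pigb-204, Pigb-206 and Pigb-207 share a coding region of 542 codons and part at its last splice site, while Pigb-201 has 2 exons and 120 codons. Pigb-202 runs on past the donor site of exon 12 and ends there in an exon of 600 bases, whereas Pigb-207 and Pigb-206 splice to a further last exon of 387 and 1481 bases. Capitals mark the bases after the last shared base at 73016149.
Pigb-207: ggagggaactgaactGAAGCATAAGAACAA
Pigb-202: ggagggaactgaactGTAAGGACTTCTGCA
The window of Pigb-202 is also found in Pigb-204, which reads through the same donor site and goes on. Pigb-202 was listed at 0 in all 3 Wtap KO libraries, against 22.6%, 20.2% and 19.4% of the gene's counts in WT. A count of 0 over the 3241 counts of the gene in Wtap KO allows a share of up to 0.0926%, which covers counting error only. Pigb-207 held 17.3%, 20.9% and 15.2% in Wtap KO, against 0%, 1.44% and 4.78% in WT. Summed over Pigb-206 and Pigb-207, the spliced last exons held 59.0% ± 4.24 in Wtap KO and 29.1% ± 8.59 in WT (SD, n = 3 each). Pigb-201, which starts inside the gene and had the highest mean share of its transcripts in WT, held 5.42%, 15.3% and 16.7% in Wtap KO and 31.4%, 30.1% and 20.6% in WT. Pigb-204 was 17.8% ± 4.38 in Wtap KO and 12.7% ± 0.442 in WT, and Pigb-208, a retained intron, was 6.85% ± 1.42 in Wtap KO and 7.41% ± 1.46 in WT, and both of these overlapped. Transcripts that read through the donor site, Pigb-202 and Pigb-204 together, thus held 17.8% ± 4.38 in Wtap KO and 33.4% ± 1.25 in WT. The gene total was 26.1 ± 0.876 CPM in Wtap KO and 27.9 ± 1.80 CPM in WT, and the groups overlapped.

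Sar1a encodes a small GTPase. SAR1A binds GTP at endoplasmic reticulum exit sites and starts the assembly of the COPII coat. Its gene lies on chromosome 10 from 61680299 to 61693297 on the plus strand. Sar1a-201 joins exon 1 directly to the exon that begins at 61684880 and ends in a last exon of 2013 bases. Sar1a-208 places an added exon of 98 bases between them and ends in a shorter form of the last exon, of 254 bases, while the coding region is 198 codons in both. Sar1a-202 reads through the donor site of exon 4 and ends in the intron. In the windows below, capitals mark the bases that follow the junction or the donor site.
Sar1a-208: gtgctgggattaaagGTTGTAAGCATCAAT
Sar1a-201: ggagcccctcgggccGTTGTAAGCATCAAT
Sar1a-202: gtgggcatgagcaagGTAAGAGACGAGTGA
Sar1a-208 held 31.7%, 36.5% and 38.0% in Wtap KO, against 19.9%, 16.2% and 15.4% in WT. Sar1a-201 held 41.3%, 37.1% and 35.9% in Wtap KO, against 70.1%, 73.1% and 76.8% in WT. The intron-retaining Sar1a-202 held 12.8%, 15.1% and 12.9% in Wtap KO, against 2.07%, 0.964% and 0.130% in WT. The short-ended and intron-retaining forms were high in every Wtap KO library, and the long-ended form was high in every WT library. As a share of TPM the difference for Sar1a-208 was smaller, at 35.5% ± 2.64 in Wtap KO and 28.9% ± 2.93 in WT. Sar1a-202 held 28.4% ± 2.29 of TPM in Wtap KO and 3.63% ± 3.33 in WT. By TPM the largest gain was thus that of Sar1a-202. Sar1a-209, which uses another added exon and another end, held 7.96% ± 1.18 in Wtap KO and 3.46% ± 0.439 in WT, without overlap. In all, transcripts with a last exon within 61691125 to 61693297 held 77.4% ± 0.151 in Wtap KO and 94.7% ± 0.859 in WT (SD, n = 3 each). This group includes the short end of Sar1a-208, and only Sar1a-201 reaches the 3′ end of the gene. The gene total did not separate, at 85.6, 95.2 and 83.9 CPM in Wtap KO and 99.0, 87.4 and 81.1 CPM in WT.

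**Figure D3:**
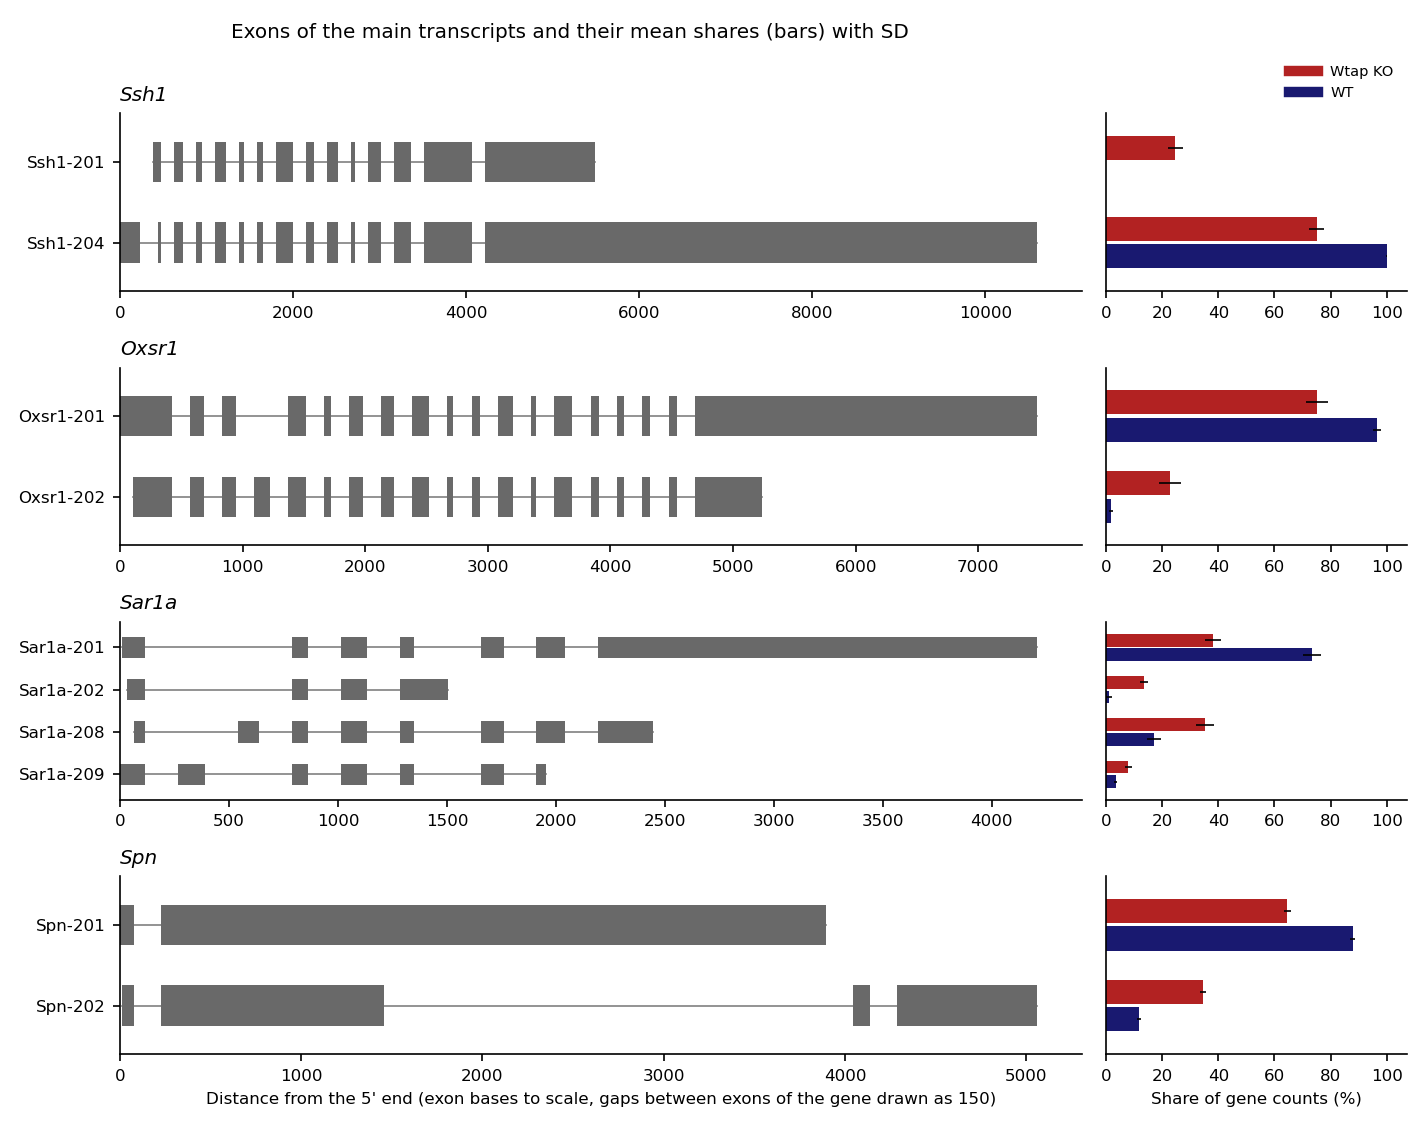
Exons (grey boxes, to scale in bases from the 5′ end, with the gaps between exons of the gene drawn at a fixed width) of the main transcripts of Ssh1, Oxsr1, Sar1a and Spn, and the mean share of the gene's estimated counts with its SD (right) in Wtap KO (red) and WT (dark blue) libraries, n = 3 each. The transcript with the longest last exon has the lower share in Wtap KO in each of the 4 genes. Among the genes not shown, Clec16a goes the other way, with Clec16a-211 at 77.9% in Wtap KO and 47.4% in WT. Pigb-208, a single exon and the longest last exon of the main Pigb transcripts, overlapped between the groups. Pigb-206, with the longest last exon of the spliced ones, was at 41.2% in Wtap KO and 27.0% in WT. Fbxl17-201 was nearly equal, at 46.6% in Wtap KO and 45.7% in WT.

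Oxsr1 and Ssh1 act on phosphorylation. Oxsr1 encodes OSR1, a kinase that WNK kinases switch on and that phosphorylates cation-chloride cotransporters. The gene, on the minus strand of chromosome 9 from 119238432 to 119322427, lies inside the annotated span of Slc22a14 on the same strand. Oxsr1-202 differs from Oxsr1-201 by an added exon 4 of 129 bases and by a last exon of 547 instead of 2785 bases. The added exon brings a stop codon, so that the reading frame has 113 instead of 527 codons. In the windows, capitals mark the bases after the end of exon 3 at 119294415.
Oxsr1-202: agctgctaagtggagTGACACACTGGAGAA
Oxsr1-201: agctgctaagtggagGTTCTGTTCTGGATA
The added exon as far as its stop codon, in capitals, runs from 119290865 to 119290816 on the minus strand.
Oxsr1-202 exon 4: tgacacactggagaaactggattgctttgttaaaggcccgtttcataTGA
Oxsr1-202 held 25.7%, 18.5% and 24.7% in Wtap KO, against 1.87%, 2.70% and 1.27% in WT. Oxsr1-201 held 73.1%, 79.6% and 72.8% in Wtap KO, against 97.1%, 94.9% and 97.7% in WT. The form with the stop codon was thus a trace in every WT library and a sizeable part of the counts in every Wtap KO library, with no overlap. Its level was 3.59 ± 0.774 TPM in Wtap KO and 0.350 ± 0.122 TPM in WT. The level of Oxsr1-201 was 5.95 ± 0.319 TPM in Wtap KO and 8.88 ± 1.10 TPM in WT (SD, n = 3 each). The gene total was 37.8, 35.5 and 33.9 CPM in Wtap KO and 48.3, 39.2 and 41.4 CPM in WT. Its log2 difference of -0.27 ± 0.12 did not pass, although the groups did not overlap; of all genes tested, 32.7% had totals that did not overlap.

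Ssh1 encodes slingshot phosphatase 1, which removes the inhibitory phosphate from cofilin and so frees it to cut actin filaments. It lies on chromosome 5 from 113937094 to 113993894 on the minus strand. Ssh1-204 starts at exon 1 of 231 bases and ends in a last exon of 6372 bases, with 1042 codons. Ssh1-201 starts within the intron that follows, with a first exon of 98 bases that includes 57 bases of its own just upstream of exon 2, and ends in a last exon of 1274 bases, with 999 codons. In the windows, capitals mark exon 2, which both transcripts contain, from base 113989686.
Ssh1-201: tctctttccctgtagTTGGAGGCTGGCAGC
Ssh1-204: gcaagcaacagcgagTTGGAGGCTGGCAGC
The lower-case run of Ssh1-201 ends in AG, the letters at the end of nearly all introns, and is intron in Ssh1-204. Ssh1-201 held 25.0%, 27.4% and 21.9% in Wtap KO and no counts in WT, where 0 of 6678 counts of the gene allows a share of up to 0.0449%. Its mean share was thus at least 552-fold higher in Wtap KO, against that floor over the group. Ssh1-204 held 74.9%, 72.4% and 77.8% in Wtap KO, against 99.8%, 99.9% and 99.8% in WT. The estimate of Ssh1-201 rests on 2 features that go together in the annotation, its own 57 bases and its early end, and the tables give no error for this split. Ssh1-204 itself stood at 8.06 ± 0.638 TPM in Wtap KO and 7.36 ± 0.718 TPM in WT, so its lower share went with an added transcript and not with a lower level. Ssh1-201 added 7.29 ± 0.876 TPM in Wtap KO (SD, n = 3 each), and as a share of the gene's TPM, which weighs short transcripts more, it held 46.0% ± 3.76. The gene total was 94.5, 87.9 and 84.9 CPM in Wtap KO and 57.6, 61.3 and 71.8 CPM in WT, a log2 difference of 0.49 ± 0.11.

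Clec16a, Usp48 and Fbxl17 belong to the ubiquitin system. Clec16a encodes a ubiquitin ligase that acts with RNF41 and USP8 in the clearance of mitochondria. The gene lies on chromosome 16 from 10545339 to 10744878 on the plus strand, with Gm15558 annotated antisense to it. Its transcripts use 1 of 2 donor sites in exon 10, which lie 48 bases apart. Clec16a-211, with 23 exons, 1034 codons and a last exon of 3265 bases, uses the upstream site. Clec16a-206, with 667 codons and in the nonsense-mediated decay class, and Clec16a-205 use the downstream site and keep the 48 bases. In the windows, capitals mark exon 11, which begins at 10611003.
Clec16a-211: ctgagaagactaaagAGATTGAGATGGTGA
Clec16a-206: gtggggagcgtgaagAGATTGAGATGGTGA
The bases kept in Clec16a-206 and removed in Clec16a-211 lie at chr16:10595986-10596033 (plus strand), are a multiple of 3 in number and open with GT (capitals).
Clec16a exon 10 end: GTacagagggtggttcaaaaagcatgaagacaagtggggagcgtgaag
Transcripts without these bases held 78.6%, 80.0% and 75.0% in Wtap KO, against 49.5%, 48.3% and 44.6% in WT, and all of this was Clec16a-211, since the other transcripts without them, Clec16a-202 and Clec16a-204, were listed at 0. Transcripts with them held 14.6%, 11.2% and 17.5% in Wtap KO, against 43.1%, 45.0% and 47.0% in WT. By share of counts, which weighs long transcripts more, the downstream donor site was about as frequent as the upstream one in WT. It was the rarer of them in each Wtap KO library. Within the group that keeps the bases, Clec16a-206 held 12.4%, 10.1% and 16.5% in Wtap KO, against 29.4%, 30.5% and 28.0% in WT. Clec16a-205, which ends in a last exon of its own of 146 bases, had no counts in Wtap KO and held 7.84%, 10.5% and 17.2% in WT. With 2426 counts of the gene in Wtap KO, a count of 0 allows a share of up to 0.124%, or at least 95.9-fold lower than in WT. As a share of TPM, Clec16a-211 held 40.9% ± 1.53 in Wtap KO and 22.5% ± 2.03 in WT. Clec16a was the member in which the transcript of the pair with the longer last exon and the longer coding region had the higher share in Wtap KO. Its total was 18.2, 18.7 and 21.4 CPM in Wtap KO and 12.9, 13.3 and 14.2 CPM in WT, a log2 difference of 0.53 ± 0.13.

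Usp48 encodes a deubiquitinase with roles in NF-kappaB signalling, and lies on chromosome 4 from 137593755 to 137658537 on the plus strand. It has 17 annotated transcripts, and no pair of them dominates. Usp48-202, with 3 exons, starts and ends inside the gene and encodes 105 codons, whereas Usp48-201 has 28 exons, 1052 codons and a last exon of 2410 bases. Usp48-202 stops 4 bases past the donor site of exon 14 of Usp48-201. Capitals mark those 4 bases in Usp48-202 and the next exon in Usp48-201.
Usp48-202: gcaccttcaataaagGTGA
Usp48-201: gcaccttcaataaagATGAATCAAAGGAAG
Usp48-202 held 32.8%, 32.6% and 35.0% in Wtap KO, against 27.7%, 28.4% and 26.0% in WT. Usp48-201 held 23.5%, 22.4% and 15.9% in Wtap KO, against 40.4%, 29.4% and 21.5% in WT, and WT 3 lay below Wtap KO 1 and Wtap KO 2. The single transcripts thus separate weakly. Grouped by last exon, the separation was clearer. The 5 transcripts with a last exon within 137656122 to 137658537 held 43.9%, 41.6% and 35.9% in Wtap KO, against 58.3%, 58.2% and 56.7% in WT. Among them, Usp48-217 ends early, at 137656331, and its share was higher in Wtap KO. The 3 that end just past exon 14 held 34.9%, 37.9% and 42.3% in Wtap KO, against 27.8%, 28.4% and 26.0% in WT. Usp48-206, a processed transcript of 2 exons at the 3′ end of the gene, was the only Usp48 transcript called for usage. It held 0.960%, 0.738% and 0.546% in Wtap KO, against 4.35%, 4.85% and 3.83% in WT. Usp48-211, a short internal transcript, held 12.7% ± 0.148 in Wtap KO and 7.77% ± 0.965 in WT. As a share of TPM, Usp48-202 averaged 14.8% ± 0.571 in Wtap KO and 14.0% ± 0.725 in WT. Usp48-205 overlapped between the groups, at 11.9% ± 1.84 in Wtap KO and 15.4% ± 5.87 in WT, and Usp48-217 did not, at 6.38% ± 0.993 in Wtap KO and 3.54% ± 0.481 in WT (SD, n = 3 each). The gene total was 165, 168 and 202 CPM in Wtap KO and 129, 146 and 148 CPM in WT.

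Fbxl17 encodes an F-box protein, the substrate-binding part of an SCF ubiquitin ligase that removes wrongly paired BTB domain proteins. It spans 63057452 to 63500017 on the minus strand of chromosome 17. Fbxl17-205, annotated as a processed transcript without a coding region, starts at a first exon of its own of 130 bases that lies in an intron of the other transcripts. In the windows, capitals mark the exon that begins at 63385052, to which both are joined.
Fbxl17-205: ccagggaaggcgaagGTGACAGATCAGTCA
Fbxl17-204: caggaaaacaaattaGTGACAGATCAGTCA
Fbxl17-205 held 18.5%, 14.2% and 9.98% in Wtap KO and no counts in WT, where 0 of 2341 counts allows a share of up to 0.128%, so the share was at least 111-fold higher in Wtap KO. Fbxl17-204, with 220 codons, held 26.6%, 41.5% and 43.2% in Wtap KO, against 49.6%, 54.8% and 43.2% in WT. For Fbxl17-204, Wtap KO 3 and WT 3 were nearly equal, and the difference of -12.1 points was -6.83 without Wtap KO 1. As a share of TPM, Fbxl17-204 held 30.1% ± 6.92 in Wtap KO and 31.5% ± 2.44 in WT. Fbxl17-202, a processed transcript of 376 bases, held 1.71% ± 0.387 of counts in Wtap KO and 4.95% ± 0.525 in WT, without overlap. Its share of TPM, which weighs short transcripts more, was 20.3% ± 4.44 in Wtap KO. In WT this share was 46.6% ± 2.01, the highest of the gene's transcripts there. The transcript with the longest coding region, Fbxl17-201 with 701 codons, did not separate, at 46.6% ± 5.54 in Wtap KO and 45.7% ± 5.81 in WT (SD, n = 3 each). The transcripts that join the upstream exons to the shared exon, Fbxl17-201, Fbxl17-202 and Fbxl17-204, together held 85.4% ± 4.58 of counts in Wtap KO and 99.8% ± 0.292 in WT. Reads across junctions were not counted. The gene total was 25.8 ± 0.913 CPM in Wtap KO and 22.3 ± 0.758 CPM in WT.

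Of the 8 gene totals, 3 were called at an adjusted p of at most 0.05, namely Ssh1 and Clec16a as higher and Spn as lower in Wtap KO. Of all 17610 genes tested, 5.75% were called higher and 3.49% lower, 9.23% together. The switch of isoforms went with a higher total in 2 genes, a lower total in 1, and no call in Pigb, Sar1a, Oxsr1, Usp48 and Fbxl17. The totals of Ssh1 and Clec16a lost their call without Wtap KO 1, Wtap KO 2, Wtap KO 3 or WT 2, and that of Spn without Wtap KO 2. At the level of single transcripts, 11 of 43 were called, 6 higher and 5 lower, against 0.72% of all 46935 transcripts tested, with 0.501% higher and 0.219% lower. Nothing is read from this count either: the genes were picked on the shares of these transcripts, and some of the 43, such as Ssh1-201, Pigb-202 and Fbxl17-205, passed the filter only through the group where they are high. All level calls over the whole table were lost without Wtap KO 1, Wtap KO 2, Wtap KO 3 or WT 2. In Spn both transcripts of the pair were called for level, in opposite directions. In Sar1a and Pigb the call was for the transcript that was lower in Wtap KO, and in Ssh1, Oxsr1, Fbxl17 and Clec16a for the one that was higher. The other calls were Clec16a-205 and Usp48-206 as lower and Usp48-204 as higher, which held 2.08%, 5.35% and 7.29% in Wtap KO, against 0.0952%, 0% and 0% in WT.

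**Figure D4:**
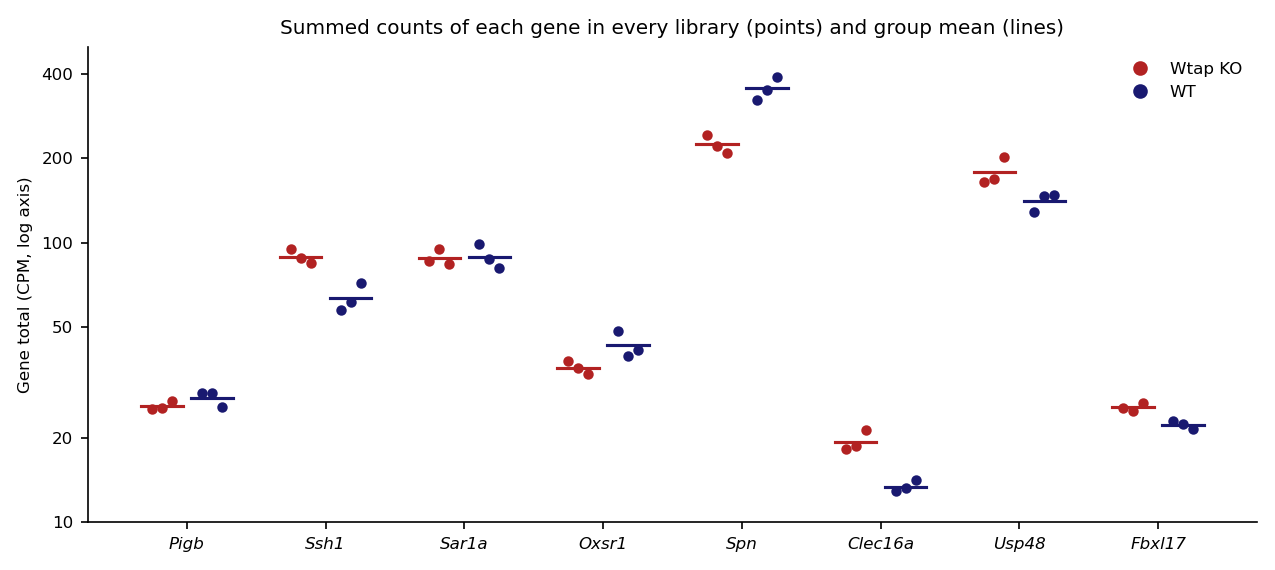
CPM (log axis) summed over all transcripts of each gene in 3 Wtap KO libraries (red, left) and 3 WT libraries (dark blue, right), with lines at the group means. Ssh1, Clec16a, Usp48 and Fbxl17 lie higher and Spn and Oxsr1 lie lower in all 3 Wtap KO libraries than in any WT library, while Pigb and Sar1a overlap.

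What the transcripts had in common was looked for in measures that were chosen after their shares had been seen. The length of the last exon, averaged over a gene's transcripts by share, was shorter in Wtap KO in 6 of the 8 genes. Sar1a had 950, 882 and 858 bases in Wtap KO against 1473, 1523 and 1592 bases in WT. The groups did not overlap in any of the 8 genes, and in 20.2% of all 9401 genes with a value. This length is computed from the shares on which the genes were picked, so nothing is read from that count. The log2 differences were -0.77 for Sar1a, -0.52 for Usp48, -0.33 for Spn, -0.32 for Ssh1, -0.28 for Oxsr1 and -0.04 for Fbxl17. The exceptions were Pigb, at 0.24, and Clec16a, at 0.62, in which the last exon was longer in Wtap KO. Over the 9401 genes, the median was -0.002, with 55.4% of genes below 0 and a 10th to 90th percentile range of -0.09 to 0.06. These lengths come from the annotation, not from reads at the ends of RNAs.

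**Figure D5:**
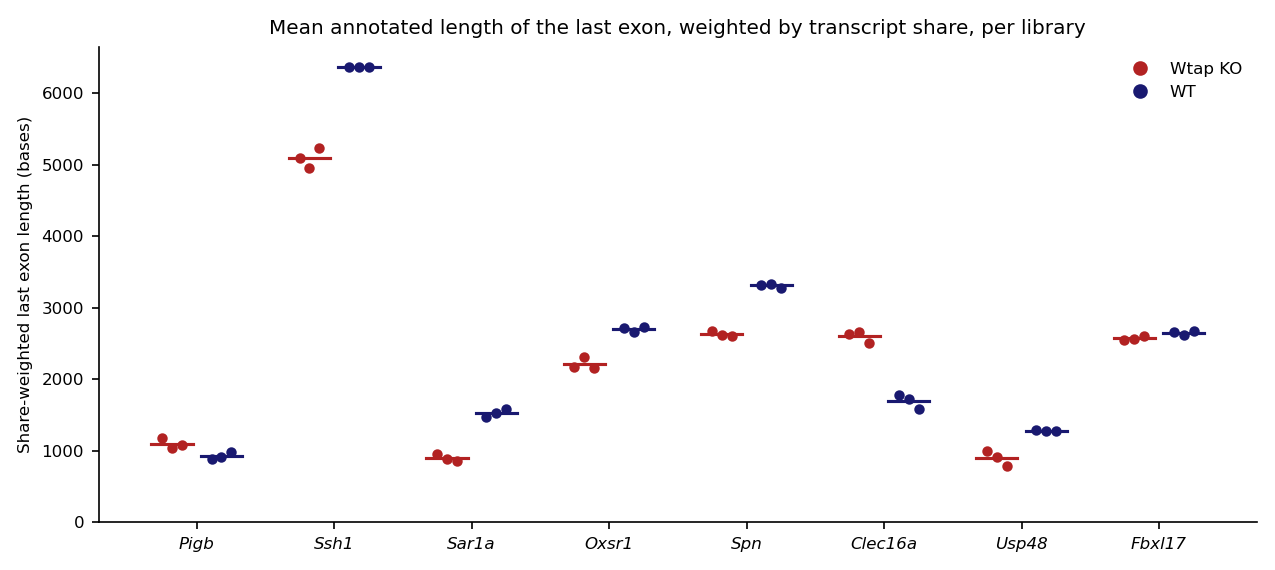
Mean annotated length of the last exon in bases, weighted by transcript share, in 3 Wtap KO libraries (red, left) and 3 WT libraries (dark blue, right), with lines at the group means. The mean is shorter in Wtap KO in 6 genes and longer in Pigb and Clec16a.

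The share held by transcripts that are not annotated as protein coding, that is by the decay, retained intron and processed classes together, moved in both directions. It was 34.5% ± 1.15 in Wtap KO and 11.8% ± 0.748 in WT for Spn, and 24.8% ± 3.84 in Wtap KO and 3.40% ± 1.47 in WT for Oxsr1. Sar1a, Fbxl17 and Pigb were also higher in Wtap KO, by 12.3, 11.1 and 5.70 points. Clec16a was the reverse, at 19.6% ± 2.70 in Wtap KO and 35.1% ± 0.422 in WT, as was Usp48, at 6.51% ± 0.468 in Wtap KO and 13.0% ± 4.03 in WT (SD, n = 3 each). Ssh1 had under 0.1% of its counts in these classes in every library. The median difference over 8994 genes was 0 points. The annotated decay class is a prediction from the position of the stop codon, and decay was not measured.

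GGACT is a frequent form of the m6A consensus, and its letters were counted on the sense strand in the last exons of the pairs. The last exons of Sar1a-201, Oxsr1-201, Spn-201 and Usp48-201, which had the lower shares in Wtap KO, held 5, 7, 5 and 5 matches. Those of Sar1a-208, Oxsr1-202, Spn-202 and Usp48-202 held 2, 0, 0 and 0 matches, in exons that are also shorter. Per kb, Sar1a ran the other way, with 7.87 matches in Sar1a-208 and 2.48 in Sar1a-201. Pigb-207 and Pigb-202 had 1 match each, Ssh1-201 had 2 and Ssh1-204 had 3, and Fbxl17-205 had 2 and Fbxl17-204 had 3. In these 3 genes the matches per kb were higher in the transcript that gained share, at 2.58 in Pigb-207 and 1.67 in Pigb-202, at 1.57 in Ssh1-201 and 0.471 in Ssh1-204, and at 1.36 in Fbxl17-205 and 1.14 in Fbxl17-204. In counts, Clec16a was the reverse of the first 4 genes, with 5 matches in Clec16a-211 and 0 in Clec16a-206. The last exons of Sar1a-208, Oxsr1-202, Ssh1-201, Clec16a-206 and Fbxl17-205 lie inside those of the other transcript of their pair. In these pairs the longer exon cannot hold fewer matches, so nothing is read from the direction of the counts. Over all last exons of tested transcripts there was 0.977 match per kb, and of last exons of a length within 10% of that of Spn-201, 95.1% held at least 1. A match is no methylated site, and m6A was not measured in these libraries.

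Genes that work with the members were read from the same fit of gene totals. The lists hold 73 genes and were chosen by known function; of 70 that could be tested, 5 rose and 6 fell in Wtap KO at an adjusted p of at most 0.05, and 59 did not pass. Of all 17610 genes tested, 5.75% were called higher and 3.49% lower, and no list was tested as a set. The median log2 difference was -0.05 over the lists and -0.0006 over all genes. In the WNK pathway of Oxsr1, 3 of 9 tested genes rose and 6 did not pass. Slc12a2, the sodium-potassium-chloride cotransporter NKCC1, rose to 28.0 ± 2.51 CPM in Wtap KO, against 19.5 ± 0.945 CPM in WT. The potassium-chloride cotransporter Slc12a4 rose to 8.38 ± 0.843 CPM in Wtap KO, against 5.05 ± 0.477 CPM in WT (SD, n = 3 each). Wnk3 rose as well but was below 1 CPM in every library. Stk39, the closest relative of Oxsr1, had 48.7 ± 3.18 CPM in Wtap KO and 78.0 ± 25.0 CPM in WT and did not pass.

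Around CD43, 2 of 7 genes rose. They were Selplg, the selectin ligand PSGL-1, at 1030 ± 105 CPM in Wtap KO and 661 ± 125 CPM in WT, and St3gal1, a sialyltransferase that caps O-glycans such as those of CD43, at 155 ± 5.79 CPM in Wtap KO and 97.6 ± 23.0 CPM in WT. Of 20 genes of GPI anchor synthesis, Pigm, which adds the first mannose, fell to 52.8 ± 3.97 CPM in Wtap KO, against 75.9 ± 5.88 CPM in WT, Pigc, a subunit of the enzyme that adds the first sugar, fell to 22.6 ± 3.48 CPM in Wtap KO, against 33.8 ± 0.736 CPM in WT, and 18 did not pass. Of 11 COPII genes, the inner coat subunit Sec23a fell to 21.2 ± 2.32 CPM in Wtap KO, against 32.6 ± 5.46 CPM in WT, and Preb, the exchange factor for SAR1, fell to 25.2 ± 2.25 CPM in Wtap KO, against 38.0 ± 3.03 CPM in WT. The paralog Sar1b was at 79.3 ± 7.92 CPM in Wtap KO and 86.1 ± 21.1 CPM in WT and did not pass. Of the 10 cofilin genes only Dstn, which encodes destrin, passed, at 31.6 ± 3.28 CPM in Wtap KO and 46.9 ± 7.77 CPM in WT. Skp1a, which links F-box proteins to the ligase, fell to 106 ± 10.1 CPM in Wtap KO, against 173 ± 32.5 CPM in WT (SD, n = 3 each). None of the 3 tested mitophagy genes or the 4 genes listed with Usp48 passed. The 11 calls hold only with most libraries: without Wtap KO 1 or Wtap KO 2 none was left, without Wtap KO 3 there were 2, without WT 2 there were 3, without WT 3 there were 8, and without WT 1 all 11.

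Morc2a, Mrpl38, Clcn7, Marveld1 and Mlh3, which ranked 2 to 6 by the largest difference in share of 1 transcript at 10 CPM or more in both groups, are given for comparison. Morc2a-202 held 28.6% ± 1.36 in Wtap KO and 79.1% ± 6.64 in WT, and Marveld1-201 held 19.5% ± 1.03 in Wtap KO and 64.2% ± 4.85 in WT (SD, n = 3 each). Clcn7-201, in contrast, held 78.8%, 75.6% and 68.5% in Wtap KO, against 10.8%, 9.57% and 68.3% in WT, so that WT 3 lay beside the Wtap KO libraries. Mrpl38-205 held 63.5% ± 14.4 in Wtap KO and 13.1% ± 14.8 in WT. Mlh3-202 held 93.1% ± 2.54 in Wtap KO and 50.8% ± 23.8 in WT. Among the members, Usp48-201 and Fbxl17-204 had the widest spread within a group, with SDs of 9.47 points in WT and 9.17 points in Wtap KO, and Spn-201 one of the narrowest, with SDs of 1.27 points in Wtap KO and 0.890 points in WT.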

How the data were processed

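RNA was measured by mRNA sequencing of 3 Wtap KO and 3 WT libraries, grouped by sample title. The authors deposited 1 table per library of 142647 transcripts with estimated counts, TPM, length and effective length. The tools named are kallisto 0.44.0 and DESeq2, per the submitters' processing notes. kallisto divides reads that match several transcripts, so the deposited estimated counts are not whole numbers, and the tables give no error for the split between transcripts of 1 gene. The deposited TPM values divide estimated counts by effective length and scale them within each library, by the authors. The sources used here do not give the strand setting or the annotation of the index.

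Of the transcript identifiers, stripped of their version, 99.15% were found in GENCODE M21 (build GRCm38). A share is the percent of a gene's estimated counts held by a transcript. Counts were rounded and fitted over all features by edgeR 4.0.16 (R 4.3.3, quasi-likelihood, TMM, filterByExpr, genotype as the only term), for gene totals, for transcript levels, and for usage with the log gene total as offset. P-values were adjusted by Benjamini-Hochberg over all features, with a threshold of 0.05. An error beside a log2 difference is its standard error. Depth was 32363139 to 44039467 estimated counts per library. The upper limit of a share of 0 is 3 divided by the summed counts of that gene in the group, for counting error only; a group sum of estimated counts under 0.5 was read as 0. The fits were tested on simulated data.

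Of the 9 genes chosen, 8 are described; the other, with its list of related genes, and 1 gene of the WNK list are not reported here. Values are given for transcripts of at least 5% of the gene's counts in either group, for called partner genes, up to 4 a list, and for the 5 genes outside the members with the largest share difference at 10 CPM or more. Usp48-204, Usp48-206, Stk39 and Sar1b were named outside this rule after their values were seen. The members and lists were chosen with earlier results of these data known. Sequences were read from the GENCODE M21 transcripts. Alternatives were leaving out each library, the replicate number as a block, RLE factors, DESeq2 1.42.0, no filter on low counts, limma 3.58.1 on log-ratios, diffSpliceDGE, counts rebuilt from TPM, and shares of TPM.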

Additional observations from a re-analysis of the deposited data

How the results depend on the processing

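With all 6 libraries and edgeR, 82 transcripts were called for usage, against 22 without a filter on low counts, 20 with counts rebuilt from TPM, 166 with limma, 180 with diffSpliceDGE, and 0 to 6 when 1 library was left out (2975 to 4705 at an unadjusted p under 0.05). Levels gave 338 calls, and 0 to 17 without 1 library (4808 to 7899 unadjusted); gene totals gave 1626 calls, 2581 with DESeq2, and 361 to 2282 without 1 library. Of the gene-total calls, 62.2% were higher in Wtap KO, and 52.5% with DESeq2. Of the 8 genes, 6 had a usage call, 3 with counts rebuilt from TPM and 0 to 1 without 1 library; 3 had a called total, and 0 to 3 without 1 library. The replicate block, with libraries paired by number, gave 0 usage calls (2892 at an unadjusted p under 0.05), 0 level calls (5261 unadjusted), 1061 gene totals, 0 member genes with a usage call and 1 with a called total. Libraries of the same number did not deviate together (correlations of -0.10, 0.05 and 0.14 over genes), so the numbers were not taken as pairs. The log2 total of Sar1a, -0.02 with all libraries, was 0.064 without WT 1, 0.011 without Wtap KO 1 and 0.020 without Wtap KO 3, within a range of -0.081 to 0.064. The share-weighted transcript length of Fbxl17 was -0.04 on the log2 scale with counts and 0.32 with TPM as weights. The signs of all 16 share differences of the pairs held in every alternative run. The causes were not tested. The effect of depth on single transcripts was not tested, and the split between transcripts has an error that these tables do not carry.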
